A study of Mus musculus with 9 samples.

Results

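Bach2, Satb1 and Id3, 3 regulators linked to the long-lived, stem-like state of T cells, were followed through the H3K27ac islands around them, 3 of 22380 protein-coding gene entries of the mm9 annotation. The genes were taken by name. Each was given a domain, which held the gene body and 200 kb on either side and stopped 1 kb short of the next annotated promoter of another protein-coding gene that lies outside the gene body. The 3 full windows held 125 of 65563 islands in the WT list and 154 of 82213 in the dKO list, and the domains touched 95 and 119 of them. H3K27ac is an acetylation of histone H3 that marks active promoters and enhancers, and an island is a stretch of the genome where ChIP-seq reads for it were enriched.

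The study compared naive CD8+ T cells, sorted from the spleen as GFP+ TCRbeta+ CD62Lhi CD44lo-med CD8+, between 2 genotypes. WT cells were Tcf7+/+ Lef1+/+ and dKO cells were Tcf7fl/fl Lef1fl/fl, and are labelled Tcf1-/-Lef1-/- after Tcf1 and Lef1, the transcription factors these genes encode. Cells of both genotypes carried hCD2-Cre, a transgene most active in mature peripheral T cells, and a Rosa26-GFP reporter that marks cells in which Cre has acted. The WT group had 4 H3K27ac samples and the dKO group had 3, with 1 input sample each, from mice of 6 to 12 weeks of age on a C57BL/6 background. The replicates of a genotype were pooled before islands were called, so each genotype gave a single value per island. No difference below has a replicate check or a p-value, and the 95% Wilson intervals cover counting error only.

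Bach2 is a repressor of the basic leucine zipper class that pairs with small MAF proteins and holds back effector genes that AP-1 factors would switch on. Satb1 is a nuclear protein that binds AT-rich DNA, organizes chromatin folding in thymocytes and T cells, and is high in naive T cells. Id3 has a helix-loop-helix domain without a DNA-binding basic region, pairs with E proteins such as those made by Tcf3 and Tcf12, and so keeps them from DNA. In CD8+ T cells, Id3 is known as a marker of memory precursors, while its relative Id2 is higher in effector cells.

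The 3 promoters, and 1 further stretch at each gene, are shown first, as mm9 reference sequence. Capitals mark the core of the Tcf/Lef motif (CTTTGNN with A or T at each N, on either strand). The promoter sequences are the 250 bases before the outermost annotated transcription start site (TSS), read along the gene: chr4:32325529-32325778 on the plus strand for Bach2, chr17:51972616-51972865 on the minus strand for Satb1 and chr4:135699162-135699411 on the plus strand for Id3.
Bach2 promoter: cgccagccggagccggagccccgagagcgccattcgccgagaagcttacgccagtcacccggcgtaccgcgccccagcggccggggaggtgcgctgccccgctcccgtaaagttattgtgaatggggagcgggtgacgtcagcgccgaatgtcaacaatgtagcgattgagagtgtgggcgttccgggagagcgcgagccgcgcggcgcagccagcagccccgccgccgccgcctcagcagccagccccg
Satb1 promoter: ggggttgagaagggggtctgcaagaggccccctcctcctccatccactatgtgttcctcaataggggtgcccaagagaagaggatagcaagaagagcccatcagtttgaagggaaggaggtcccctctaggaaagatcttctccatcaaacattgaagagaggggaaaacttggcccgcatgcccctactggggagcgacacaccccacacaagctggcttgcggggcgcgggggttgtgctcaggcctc
Id3 promoter: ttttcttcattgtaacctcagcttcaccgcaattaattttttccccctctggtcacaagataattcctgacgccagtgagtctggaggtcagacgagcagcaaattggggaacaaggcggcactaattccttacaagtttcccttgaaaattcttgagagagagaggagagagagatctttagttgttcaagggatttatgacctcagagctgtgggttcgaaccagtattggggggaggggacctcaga
None of the 3 stretches held a core, as was the case for most promoters: 13.9% of 22380 windows of that length held at least 1. The promoters differed in base composition, with a GC content of 71.2% at Bach2, 58.0% at Satb1 and 46.4% at Id3.

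For Bach2 and Satb1, the 300-base tile with the most cores was taken from the region with the most reads, leaving out exons. The Bach2 tile is chr4:32415101-32415400 and the Satb1 tile is chr17:51921401-51921700, both intronic and both on the plus strand. They lie 89.5 kb and 51.1 kb into the transcribed side of the TSS. For Id3, the central 300 bases of an accessible site that the study linked to Id3 are shown, chr4:135656351-135656650 on the plus strand, an intergenic position 42.9 kb upstream of the TSS. The study placed it among sites more accessible in dKO and linked to genes with higher expression there. The study also described a site in a Bach2 intron with reduced accessibility and H3K27ac in dKO. The Bach2 tile was picked by its cores and not for that site.
Bach2 intronic tile: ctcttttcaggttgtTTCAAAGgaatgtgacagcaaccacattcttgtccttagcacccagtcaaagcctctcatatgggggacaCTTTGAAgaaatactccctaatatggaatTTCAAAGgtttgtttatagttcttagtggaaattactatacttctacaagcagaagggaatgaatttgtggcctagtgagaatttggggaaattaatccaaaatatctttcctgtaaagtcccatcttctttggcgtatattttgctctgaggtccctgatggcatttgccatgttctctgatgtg
Satb1 intronic tile: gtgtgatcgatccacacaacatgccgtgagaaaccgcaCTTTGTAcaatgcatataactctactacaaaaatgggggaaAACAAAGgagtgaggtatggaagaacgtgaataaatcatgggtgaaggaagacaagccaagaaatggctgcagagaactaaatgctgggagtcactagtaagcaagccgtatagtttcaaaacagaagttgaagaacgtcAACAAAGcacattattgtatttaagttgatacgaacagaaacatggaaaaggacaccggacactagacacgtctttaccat
Id3 upstream site: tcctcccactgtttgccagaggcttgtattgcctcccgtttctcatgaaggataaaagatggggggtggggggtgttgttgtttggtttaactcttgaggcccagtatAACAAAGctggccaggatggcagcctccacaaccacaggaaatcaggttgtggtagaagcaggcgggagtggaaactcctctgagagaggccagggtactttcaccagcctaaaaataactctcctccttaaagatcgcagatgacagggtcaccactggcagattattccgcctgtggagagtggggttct
Both tiles, picked for their cores and not for their acetylation, held 3 cores, and the Id3 site held 1. Among 1393810 tiles of the same length in the islands of both lists, 22.8% held at least 1 core. Over the whole regions with the most reads, cores stood at 0.90 per kb at Bach2, 0.92 per kb at Satb1 and 0.79 per kb at Id3, against 0.89 per kb over all regions with islands in both lists. Core density over the region with the most reads at each gene was thus close to that of acetylated chromatin as a whole. Of the other regions with many reads, a Satb1 upstream region (chr17:52011201-52036600) was denser, with 36 cores at 1.42 per kb. The rest stood at 0.82 to 0.96 per kb. A match says only that these letters are present.

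All islands together held 82668007 counts in the WT list and 57665047 in the dKO list, and values are given as CPM, counts per 1000000 of these sums. One count was worth 0.0121 CPM in WT and 0.0173 CPM in dKO. Islands of the lists that overlapped were merged into 76633 regions, of which 45322 had islands in both. Over these, the log2 ratio of CPM per covered kb fell with depth. When the regions were put into 10 equal groups by mean depth, the median ratio was 0.03 in the lowest group, -0.20 in the next to highest and -0.37 in the highest, where the SD over regions was 0.36. Each depth ratio at the 3 genes is therefore set beside the median of the 1000 regions or gene domains closest to it in mean depth. All 6 T cell marker promoters checked had islands in both lists (Cd3e, Cd3d, Cd8a, Cd8b1, Il7r and Ccr7). Islands also lay over promoters of 3 of 4 B cell, 1 of 2 NK cell, 3 of 3 myeloid and 1 of 2 erythroid markers, with none at Ebf1, Ncr1 or Hba-a1 in either list. Counting each island once, the T cell islands summed to 1367 CPM in WT and 853 CPM in dKO, and the B cell islands to 199 and 190 CPM. Of the 6 T cell promoters, Il7r and Ccr7 had less CPM in dKO. Cd3e and Cd3d lay in separate islands in WT (82.2 and 163 CPM) and shared 1 in dKO (215 CPM). Cd8a and Cd8b1 shared 1 island in WT (362 CPM) and lay in separate islands in dKO (135 and 157 CPM). The values of these pairs therefore cannot be read promoter by promoter. The NK cell islands summed to 49.9 and 64.3 CPM, the myeloid islands to 28.6 and 18.3 CPM and the erythroid islands to 12.3 and 6.29 CPM. Their part in the values below was not tested.

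Bach2 had the broadest H3K27ac coverage of the 3 genes in kb and had fewer counts in dKO. Its domain (chr4:32125779-32688356) held 165830 WT counts on 477.0 kb of islands and 82887 dKO counts on 447.6 kb, or 2006 and 1437 CPM. By domain counts Bach2 ranked 2 among 17216 protein-coding genes with islands of both lists in WT, and 5 in dKO. Such ranks are not adjusted for domain length, which was 562.6 kb at Bach2, 497.1 kb at Satb1 and 117.0 kb at Id3. The log2 count ratio of dKO to WT was -0.48 (95% interval -0.49 to -0.47). Of all gene domains, 16.1% had a lower ratio. The domain was under the 1.5-fold difference used to call a change, which 12.2% of gene domains passed as lower and 11.5% as higher in dKO. Per covered kb the Bach2 ratio was -0.39, from 4.21 to 3.21 CPM per kb. The 1000 gene domains of like depth had a median of -0.32, with 80% of them between -0.84 and 0.08, so the Bach2 domain lay only 0.07 below domains of its depth.

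**Figure D1:**
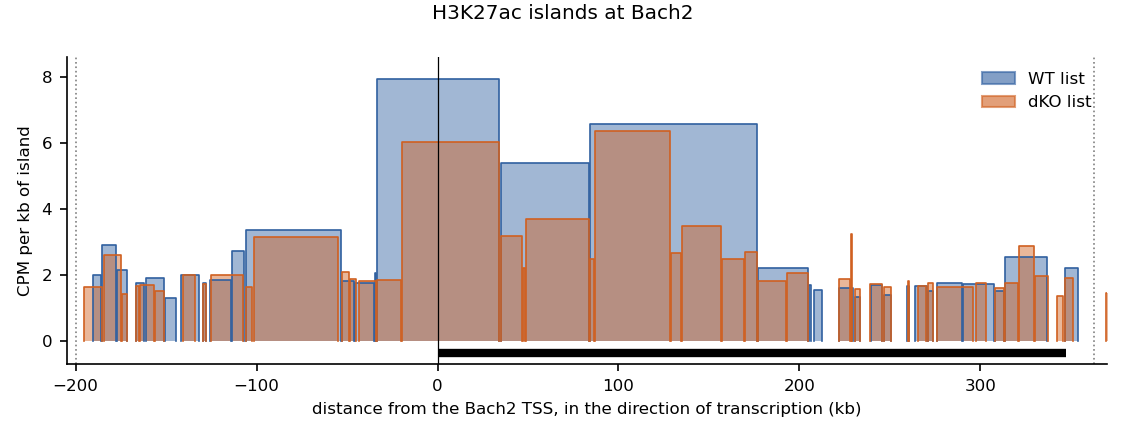
H3K27ac islands at Bach2, with the distance from the TSS along the gene in kb on the x axis and the CPM per kb of each island on the y axis; the black bar is the gene body and the dotted lines are the domain ends. Across the TSS and introns 1 and 2, WT islands stand at 5.40 to 7.94 CPM per kb and most dKO pieces stand lower, while from intron 3 on both lists stay low.

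Most of the difference at Bach2 lay between 33.2 kb upstream of the TSS and 176.6 kb into the gene body of 347.3 kb. The 3 regions with the most counts covered the TSS and introns 1 and 2, and they held 69.9% of the domain's counts in WT and 64.0% in dKO. They carried 481 of the 569 CPM by which the domain differed, or 84.6%. The promoter region (chr4:32292601-32359600) had 43962 WT counts on 67.0 kb and 19918 dKO counts on 66.2 kb, which is 7.94 and 5.22 CPM per kb. Its log2 count ratio was -0.62 and its depth ratio -0.61, and 1000 regions of like depth had a median of -0.39. The count ratio passed 1.5-fold, but not when scaled to shared regions (-0.55) or with islands within 1 kb joined (-0.53). The next region (chr4:32360601-32409400), over intron 1, exon 2 and the start of intron 2, had 21774 counts in WT and 9717 in dKO, with ratios of -0.64 for counts and -0.61 for depth beside a median of -0.35. The third (chr4:32410001-32502400), inside intron 2, was the largest, with 50131 and 23436 counts. It had ratios of -0.58 and -0.53 beside a median of -0.40. All 3 lay below the median of their depth, and all 3 lay within the range of the central 80% of such regions, whose lower ends were -0.90, -0.76 and -0.82.

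The outer borders of these regions were nearly the same in the lists, but dKO had more and smaller islands inside them. The gaps between these were short, as dKO islands covered 66.2 of 67.0 kb, 47.6 of 48.8 kb and 89.4 of 92.4 kb. Over the genome the dKO list also had more and narrower islands, 82213 with a median width of 3000 bp. The WT list had 65563 with a median of 3600 bp. Whether the splits at Bach2 go beyond this was not tested. Where WT had 1 island of 67.0 kb over the promoter, dKO had islands of 13.0 and 53.2 kb at 1.85 and 6.04 CPM per kb, with the higher over the TSS. The single WT island of 48.8 kb corresponded to 3 dKO islands at 2.2 to 3.7 CPM per kb. The WT island of 92.2 kb, ranked 9 of all WT islands by counts, corresponded to 6 dKO islands. One of these, 41.6 kb wide, reached 6.35 CPM per kb, where the whole WT island averaged 6.58, and the other 5 stood at 2.47 to 3.48. An island gives a single count, so WT depth within the 92.2 kb cannot be set against each dKO piece. Across the whole domain, 14 WT islands overlapped 2 or more dKO islands and 7 dKO islands overlapped 2 or more WT islands. At Satb1 these numbers were 19 and 11, and at Id3 they were 1 and 3. Such overlaps were not counted over all gene domains. Of the bases in the Bach2 domain covered by either list, 88.5% were covered by both. The median of that share over all gene domains was 58.7%.

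From intron 3 to the gene end, Bach2 acetylation was low, and islands covered 121.7 kb in the WT list and 109.7 kb in the dKO list. The count ratio there was -0.22 (95% interval -0.25 to -0.19). Depth was 1.94 CPM per kb in WT and 1.85 in dKO, a log2 depth ratio of -0.07, whereas introns 1 and 2 together stood at 6.47 and 4.54, a ratio of -0.51. Outside the 3 strong regions, the depth ratio of the domain was -0.09. The second annotated promoter (TSS of Bach2-202 and Bach2-203) lay in a region of moderate depth (chr4:32503001-32530400), with 2.22 CPM per kb in WT and 1.92 in dKO, a depth ratio of -0.21 beside a median of -0.01. The TSS of Bach2-201 further into the gene had no island within 1 kb in either list. Of the upstream regions, the broadest (chr4:32220001-32272400) had 14549 and 8801 counts and a depth ratio of -0.14, beside a median of -0.17.

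Of the 22 Bach2 regions with islands in both lists, 5 were at least 1.5-fold lower in dKO by counts and 0 were higher, against 14.6% and 11.1% of all such regions. When scaled to shared regions or by the median ratio, 3 were lower, and the strong regions were no longer among them. The lowest, over the last exon (chr4:32672401-32679800), had 1354 and 505 counts and a log2 ratio of -0.90, but a depth ratio of -0.22, with a WT island of 7.4 kb and a dKO island of 4.6 kb. A narrower dKO island accompanied 2 others of the 5 as well, which had depth ratios of 0.00 (chr4:32184001-32194200) and 0.14 (chr4:32585201-32586600). Per covered kb, 2 regions remained lower, the promoter region and the one after it, and 0 were higher, against 4.51% and 1.17% of all regions. Under either of those scalings 0 Bach2 regions passed per covered kb. The highest count ratios, 0.22, 0.21 and 0.08, belonged to weak regions within introns 3 and 4 (chr4:32556401-32559200, chr4:32572801-32576600 and chr4:32596801-32599400). Regions in WT alone made up 11.5% of the Bach2 regions, against 12.8% of all regions, and regions in dKO alone made up 3.85%, against 28.1%. WT alone had 3, the larger 2 with 671 counts (chr4:32175201-32181400) and 506 counts (chr4:32534001-32538000), and dKO alone had 1 with 237 counts (chr4:32668401-32671400). Genome-wide, the median count of such regions was 258 in WT and 175 in dKO.

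Satb1 had a smaller difference in the same direction, close to that of other loci of its depth. Its domain (chr17:51675512-52172615, with no other protein-coding promoter in the window) held 84263 WT counts on 338.1 kb and 50490 dKO counts on 331.1 kb, or 1019 and 876 CPM. It ranked 24 in WT and 53 in dKO among gene domains. The log2 count ratio was -0.22 (95% interval -0.24 to -0.20), and 30.4% of gene domains had a lower one. The depth ratio was -0.19, from 3.01 to 2.64 CPM per kb, and the 1000 domains of like depth had a median of -0.21, so Satb1 lay 0.02 above them.

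**Figure D2:**
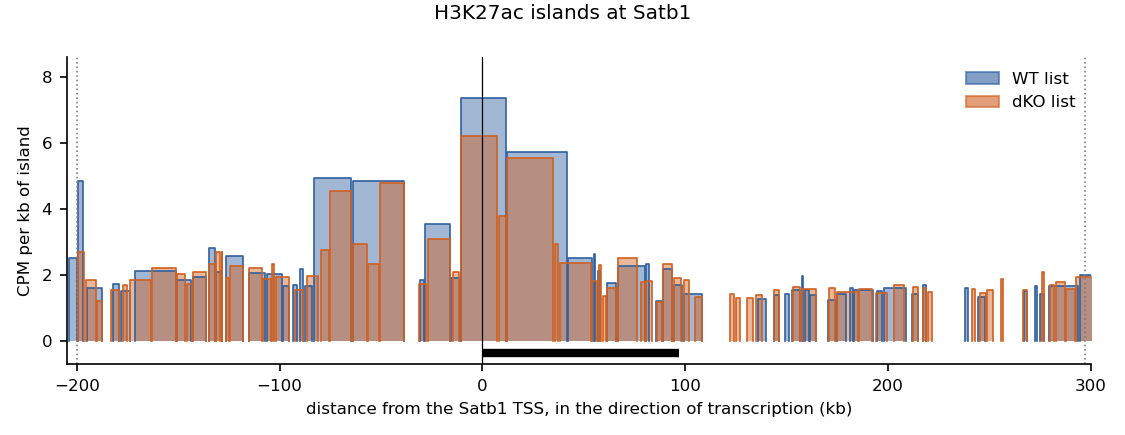
H3K27ac islands at Satb1, with the distance from the outermost TSS along the gene in kb on the x axis and the CPM per kb of each island on the y axis; the black bar is the gene body and the dotted lines are the domain ends. Depth peaks at the TSS at 7.35 CPM per kb in WT and 6.20 in dKO, continues upstream to about the -87.4 kb mark, and averages 1.53 in WT and 1.58 in dKO beyond the 3′ end.

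The strongest Satb1 acetylation lay over the 5′ part of the gene and the intergenic stretch upstream. The promoter region (chr17:51961001-51983000) had 13361 counts in WT and 7142 in dKO, which is 7.35 and 5.79 CPM per kb. Its log2 count ratio was -0.38 and its depth ratio -0.34, beside a median of -0.39 for regions of its depth. In dKO the region was split into a piece of 17.8 kb over the TSS at 6.20 CPM per kb and a piece of 3.6 kb at 3.77. The neighbouring region inside the gene (chr17:51916001-51960400), which covers further annotated TSSs, had 16607 and 9907 counts, a ratio of -0.23 by both measures and a median of -0.34 beside it. All 13 distinct TSSs of Satb1 coding transcripts had an island within 1 kb in both lists. The third annotated promoter region (chr17:51879001-51883600), near the 3′ end, was weak, with 834 and 595 counts and a depth ratio of 0.10.

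Upstream of Satb1, a pair of intergenic regions had lower ratios than the promoter by counts. The nearer (chr17:52011201-52036600), between 38.6 and 64.0 kb upstream, had 10173 and 5177 counts, a count ratio of -0.45 and a depth ratio of -0.39 beside a median of -0.31. The farther (chr17:52037201-52060000) had 8104 and 3972 counts and ratios of -0.51 and -0.34 beside a median of -0.28. In both, the dKO piece nearest to the gene stood at 4.79 or 4.54 CPM per kb and the pieces farther upstream at 1.98 to 2.95. The broader WT islands they overlap averaged 4.84 and 4.95 CPM per kb over their whole width, so here too WT depth cannot be set against each piece. The 200 kb beyond the 3′ end differed little, with 1.53 CPM per kb in WT and 1.58 in dKO.

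Among the 39 Satb1 regions with islands in both lists, 1 was at least 1.5-fold higher in dKO by counts and 1 was lower. Of all such regions, 11.1% were higher and 14.6% lower. The lower (chr17:52146601-52151000) had 555 and 194 counts and a ratio of -1.0, with a WT island of 4.4 kb, a dKO island of 2.0 kb and a depth ratio of 0.14. The higher (chr17:51889201-51891800) had 230 and 274 counts and a ratio of 0.77, with islands of 1.2 and 2.6 kb and a depth ratio of -0.34. At each of them the ratio changed sign when width was taken into account. Per covered kb, 1 region was lower and 0 were higher, against 4.51% and 1.17% of all regions. It was a different region, at the upstream end of the domain (chr17:52168801-52172000), with 4.85 CPM per kb in WT, 2.68 in dKO and a ratio of -0.85 beside a median of -0.26. Others named for the size of their count ratio were 0.35 (chr17:51808201-51815200) and 0.33 (chr17:51704001-51706200) on the high side and -0.51 (chr17:51864401-51873200) on the low side, with depth ratios of 0.03, 0.04 and 0.14. Satb1 had 3 islands in WT alone, with 164 to 212 counts, and 8 in dKO alone, with 127 to 268. In all, 16.0% of the Satb1 regions were in dKO alone and 6.0% in WT alone, against the shares of 28.1% and 12.8% over all regions.

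At Id3 the islands were wider in dKO, and their depth over the whole domain was nearly the same. The domain (chr4:135610309-135727308), bounded by the promoters of Rpl11 and E2f2, held 23050 WT counts on 87.1 kb and 19738 dKO counts on 106.7 kb, or 279 and 342 CPM. Islands covered 74.5% of the domain in WT and 91.2% in dKO. Over the genome, islands also covered more in dKO, 429.3 Mb against 392.7 Mb in WT. The log2 count ratio was 0.30 (95% interval 0.27 to 0.32), and 75.9% of gene domains had a lower one. The log2 width ratio was 0.29 and the depth ratio 0.00, with 3.20 and 3.21 CPM per kb. The 2 regions with islands in both lists held 90.3% of the domain's counts in WT and 91.3% in dKO. Outside them the count ratio was 0.14 and the depth ratio -0.50. Domains of like depth had a median depth ratio of -0.24, so Id3 lay 0.24 above them and still within their central 80%, which ran from -0.72 to 0.10. Id3 rose in rank by counts from 1223 to 869.

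**Figure D3:**
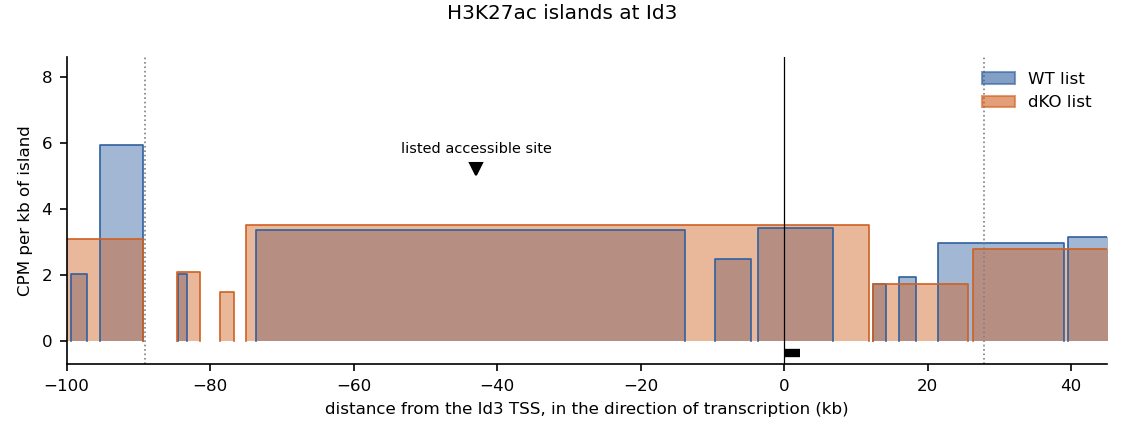
H3K27ac islands at Id3, with the distance from the TSS in kb on the x axis and the CPM per kb of each island on the y axis; the black bar is the gene body, the dotted lines are the domain ends and the triangle is the accessible site that the study linked to Id3. A single dKO island of 86.8 kb at 3.52 CPM per kb spans 3 WT islands at 2.49 to 3.42 CPM per kb and the gaps between them.

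A single region carried most of the Id3 signal (chr4:135624401-135711200), with 20606 WT counts on 75.2 kb and 17626 dKO counts on 86.8 kb. WT had 3 islands there. The distal one (chr4:135625801-135685600), 59.8 kb wide, had 16636 counts, the next (chr4:135689801-135694800) had 1030, and the one over the gene (chr4:135695801-135706200) had 2940. In dKO these formed 1 island, which also covered the stretches between them and reached farther past the gene. The count ratio was 0.29 and the depth ratio 0.09, beside a median of -0.21 for regions of its depth and a 90th percentile of 0.10. The accessible site shown above lay in the distal WT island, at 3.37 CPM per kb, and in the fused dKO island, at 3.52. Over the 86.3 kb of the domain covered by both lists, with counts spread evenly within each island, the log2 ratio was 0.05, and 20.4 kb was covered in dKO alone against 0.8 kb in WT alone.

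The other Id3 regions were small. One (chr4:135614801-135618000) had 202 WT counts on 1.2 kb and 388 dKO counts on 3.2 kb, a count ratio of 1.46 and a depth ratio of 0.05. It was the 1 Id3 region called higher, of 2 with islands in both lists, against 11.1% of all such regions. Another (chr4:135620801-135622800) was in dKO alone with 171 counts. Past the 3′ side, an island of 13.2 kb in dKO overlapped 3 WT islands, the last of which covers the E2f2 promoter and was cut by the domain end. The count of the rest of the domain therefore depends on where it is ended, and over the full 200 kb windows the log2 count ratio was 0.13.

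The promoters around Id3 mostly had depth ratios below 0. In its window, 9 of the neighbouring genes examined had promoter regions with islands in both lists, and 8 had a depth ratio below 0. Of all 45322 such regions, 24203 did. The median of the 9 was -0.28. They ranged from -0.81 at Hnrnpr to 0.44 at Asap3, where regions of like depth had medians of -0.40 and -0.02. Rpl11 was at -0.33 and E2f2 at -0.25, beside medians of -0.22 and -0.11. In contrast, 1110049F12Rik, at -0.22, lay above its median of -0.35. The Tcea3 promoter had an island in dKO alone, with 1029 counts. Around Bach2, the promoters of Casp8ap2 and Mdn1, beyond the domain, had depth ratios of -0.43 and -0.33, and Gja10, whose promoter ends the domain, had no island. The promoter of D130062J21Rik, a gene nested in Bach2, shares the Bach2 promoter region.

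**Figure D4:**
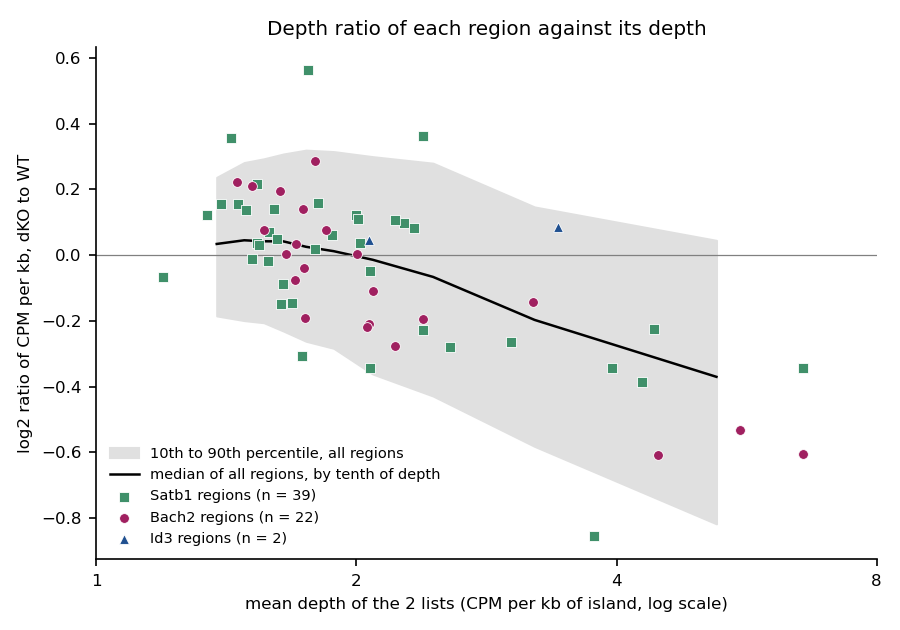
Log2 ratio of CPM per kb, dKO to WT, for each of the 63 merged regions of the 3 genes with islands in both lists (y axis) against the mean depth of the lists in CPM per kb on a log scale (x axis); the line and band are the median and the 10th to 90th percentiles of all 45322 such regions in 10 groups by depth. The 3 deepest Bach2 regions lie between -0.61 and -0.53, below the line, the 4 deepest Satb1 regions lie between -0.39 and -0.23 around it, and the large Id3 region lies above it at 0.09.

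The 3 deepest regions of Bach2 had lower ratios than the 4 deepest of Satb1, and the weak regions of both overlapped. How often other pairs of genes differ in this way was not examined. In the deepest group, at or above 3.93 CPM per kb, 3 of 3 Bach2 regions lay below the median of like depth, as did 2 of 4 Satb1 regions, and no Id3 region was that deep. The median depth ratio there was -0.61 for Bach2 and -0.34 for Satb1, against -0.37 for all 4533 regions of the group. Below that depth, the median was 0.00 over 19 Bach2 regions, 0.05 over 35 Satb1 regions and 0.00 over all 40789 regions. The regions of a gene share libraries and neighbouring chromatin and are not replicates.

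Islands were stitched over the default ROSE distance and the stitched stretches ranked by counts. In both lists each TSS lay in a stretch past the bend (slope 1) of the ranked curve, the usual definition of a super-enhancer. Past the bend were 1139 of 14376 stretches in WT and 974 of 12919 in dKO. No input was subtracted. The Bach2 stretch ranked 6 of 14376 in WT, over 544.6 kb, and 66 of 12919 in dKO, where the 3′ part of the locus fell into a separate stretch of 129.6 kb that was not past the bend. The Satb1 stretch ranked 15 in WT, over 592.8 kb, and 68 in dKO, over 596.2 kb. In both lists it ran past the upstream end of the Satb1 domain. It held 121827 WT and 72743 dKO counts, against 84263 and 50490 in the domain. The Id3 stretch ranked 340 in WT, over 216.8 kb, and 119 in dKO, over 460.2 kb, and it takes in neighbouring genes.

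**Figure D5:**
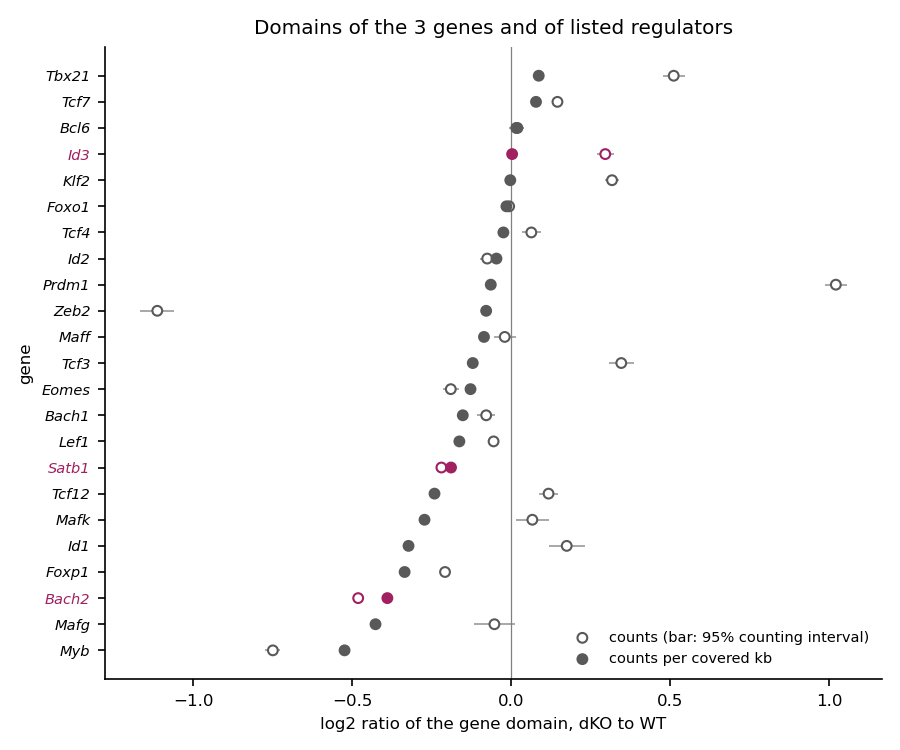
Log2 ratio of dKO to WT over the domains of the 3 genes (in colour) and of 20 related regulators (grey), by counts (open circles, with 95% counting intervals) and by counts per covered kb (filled circles); genes are ordered by the latter. Bach2 stands near the bottom at -0.39, Satb1 at -0.19 and Id3 at 0.00.

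Related regulators were taken from lists by family and role. Of 21 genes, 20 had islands of both lists in their domain, 1 was at least 1.5-fold higher by counts and 2 were lower, beside 11.5% and 12.2% of all gene domains, and the median count ratio was 0.0050, against -0.0040 over all gene domains. The median depth ratio was -0.10 over the listed genes and -0.14 over all gene domains. Among 6 ID and E protein genes, partners and relatives of Id3, 0 were called, and Tcf3 and Tcf12, which encode the E proteins E2A and HEB, had count ratios of 0.35 and 0.12 and depth ratios of -0.12 and -0.24. Id2 had ratios of -0.08 and -0.05 and Id1 of 0.17 and -0.32, and Id4 had an island in dKO alone. Of the BACH and small MAF genes, 0 of 4 were called. Mafg, a small MAF partner of Bach2, had the lowest depth ratio of them at -0.43, and Bach1 was at -0.15.

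Of 7 regulators of naive and memory stem-like T cells, Myb was called lower, with a count ratio of -0.75 and a depth ratio of -0.52, and it and Mafg were the 2 listed genes with a lower depth ratio than Bach2. Relative to domains of like depth, 5 listed genes lay below Bach2 at -0.07, namely Myb (-0.36), Id1 (-0.25), Foxp1 (-0.11), Mafg (-0.11) and Tcf12 (-0.09). By the same measure 8 of the 20 lay below Satb1 and 17 below Id3. Foxp1, Lef1, Foxo1, Klf2, Bcl6 and Tcf7 had depth ratios of -0.33, -0.16, -0.01, 0.00, 0.02 and 0.08. These values over Tcf7 and Lef1 cover more than the floxed exons and do not check the deletion. Among 5 effector regulators, Prdm1, which encodes the repressor Blimp1, was called higher at 1.02 and Zeb2 lower at -1.11. Their depth ratios were -0.06 and -0.08, so that those calls lay in the width of the islands. Tbx21 was at 0.51 and 0.09, and Eomes at -0.19 and -0.13.

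The genes most like each of the 3, by the distance between domain ratios of counts and of width among genes with at least 0.5 times as many WT counts, were found in this single comparison of 2 pooled lists. For Bach2, the nearest of 26 was D130062J21Rik, which lies inside it and shares its islands. It was followed by Btg1, Ets1, Tgfbr2 and Prkch, at distances of 0.17 to 0.20, with count ratios of -0.32 to -0.28, all higher than the Bach2 value of -0.48. For Satb1, 319 genes were compared, and Zhx2, Man1c1, S1pr1, Eif4e3 and Enc1 lay at 0.04. For Id3, 3408 were compared, and Aox3l1, Trmu, Armc9, Il21r and Ttll5 lay at 0.0022 to 0.014.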

How the data were processed

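H3K27ac ChIP-seq was performed on naive CD8+ T cells of WT and dKO mice. Per the labels and the study's methods, the authors mapped reads to mm9 with Bowtie2 2.2.5, kept unique reads of mapping quality above 10, pooled replicates, and called islands by SICER 1.1 with a 200 bp window, a 400 bp gap and an FDR cutoff of 0.01. Handling of duplicates was not stated. The deposited values are whole-number counts of reads per island; inputs carried no values of their own here.

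Counts were divided by the island total of their list. Counts of an island cut by a border were apportioned evenly by length. Genes and TSSs came from GENCODE vM1 on NCBIM37, which is mm9. Scripts (Python 3.11.15) were tested on simulated lists. Because a wider island collects more reads, ratios are also given per covered kb, and a place with no island has no value. No test across replicates was possible. A few listed or neighbouring genes are not reported here.

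The members and gene lists were chosen with earlier results of these data known. Named regions were, per domain, the promoter regions, the 3 with most counts, the 3 highest and 3 lowest count ratios among regions with at least 200 counts, and the 2 strongest of each list alone. A few further regions (the broadest upstream of Bach2 and the Satb1 region that passed per kb) were named after their values were seen.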

Additional observations from a re-analysis of the deposited data

How the results depend on the processing

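No paired analysis was possible because the replicates of each genotype were pooled before islands were called. No replicate was left out, for the same reason.

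Bach2 kept its negative sign and Id3 its positive sign under all alternatives run, and Satb1 under all but depth relative to domains of like depth. With shared-region totals, the domain ratios of Bach2, Satb1 and Id3 were -0.41, -0.15 and 0.37, and the promoter ratios were -0.55, -0.31 and 0.36. The median ratio as scale gave -0.41, -0.15 and 0.37 for domains and -0.55, -0.31 and 0.37 for promoters. These scalings raise every log2 ratio by 0.071 and 0.073. Both left 2 regions higher and 4 lower. Per covered kb, the domain ratios were -0.39, -0.19 and 0.0030, the Id3 promoter region was at 0.087, and regions called numbered 0 higher and 3 lower, from 2 and 6. Over bases common to both lists the domains gave -0.43, -0.18 and 0.049. Full windows gave -0.45 for Bach2, 0.13 for Id3 and 7 higher regions. From 50 kb upstream to the gene end the values were -0.53 for Bach2 and 0.25 for Id3, with 1 region higher and 3 lower. Joining islands within 1 kb gave promoter ratios of -0.53 for Bach2, -0.26 for Satb1 and 0.20 for Id3 and 3 lower regions. A 2-fold threshold left 1 higher and 0 lower, and 10 pseudocounts in both lists, which let in regions of a single list, gave 12 and 11. An alternative chosen after seeing the data, depth relative to domains of like depth, gave -0.068, 0.018 and 0.24. The cause of that dependence on depth was not tested. Leaving out islands under 100 counts moved no ratio beyond its counting interval and gave 2 higher and 5 lower regions.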
